A study of Canis lupus familiaris with 8 samples.

Results

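The tissue inhibitors of metalloproteinases (TIMPs) and the matrix metalloproteinases (MMPs) were followed in the dog heart through 6 genes: the inhibitors TIMP1, TIMP2 and TIMP3, the gelatinases MMP2 and MMP9, and the membrane-anchored protease MMP14. The members were all probe sets to which the platform annotation gives a single symbol among these 6 genes, which made 13 probe sets of the 23913 on the Affymetrix canine array and 6 genes of the 6540 that it names. TIMP3 had 6 probe sets, MMP9 had 3, and TIMP1, TIMP2, MMP2 and MMP14 had 1 each. A probe set is a group of short oligonucleotides that together report 1 transcript.

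The tested animals were 4 male dogs given methionine in their drinking water for 2 weeks, which raises the blood level of the amino acid homocysteine (hyperhomocysteinemia, HHcy). The other 4 male dogs were controls, and all animals weighed 23 to 27 kg. Total RNA of cardiac tissue was hybridised to 1 array per dog. The labels name no strain, age or heart chamber, and the tissue is whole, so every cell type of the heart contributes. The study asked what chronic HHcy does to gene expression across the heart.

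MMPs are zinc-dependent proteases that cut collagens, gelatin and other matrix proteins, and they are made as inactive proenzymes. TIMPs bind the active site of MMPs and block it, and TIMP2 together with MMP14 also serves at the cell surface to activate the MMP2 proenzyme. In the heart these proteins are known for their part in matrix remodelling after injury, with fibroblasts and infiltrating leukocytes among their sources.

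The deposited signals are MAS5 intensities on a linear scale, with a trimmed mean of 500.08 to 500.10 units on every array. Array HHcy 6 stood apart from the others. The summed signal of cardiomyocyte markers, of which 10 of 13 were found on the array, led by MYL2 and MYH7, was 19318 on HHcy 6, against 215950 to 254347 for HHcy 5, 7 and 8 and 199631 to 312952 for the control arrays. For actin the ratio of 3' to 5' signal, a sign of RNA degradation when high, was 599.6 on HHcy 6 and 15.3 on HHcy 5, against 2.67 and 1.69 on HHcy 7 and HHcy 8 and 0.378 to 2.49 on the controls. For GAPDH the ratio was 10.5 on HHcy 6, 17.2 on HHcy 5, 5.14 on HHcy 7 and 3.56 on HHcy 8. The controls had 1.46 to 3.76 for GAPDH, so HHcy 7 was above them all. HHcy 5 and HHcy 6 had the highest ratios for both genes. Results are therefore also given without HHcy 6, and without HHcy 5 and HHcy 6. With 4 arrays in each group, precision is limited throughout.

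No member probe set passed the test across the whole array. Folds are on the scale of log2(signal + 24), which understates the change of dim probe sets, and p-values are from limma with Benjamini-Hochberg adjustment over the 14301 probe sets bright enough to test, at a threshold of 0.05. Of the 13 member probe sets 11 were bright enough, and 0 of these 11 passed, against 0.0979% of all tested probe sets. At an unadjusted p under 0.05 there were 4 of the 11, against 17.8% of all tested probe sets. Among them the brightest MMP9 probe set, TIMP1 and TIMP2 were higher in HHcy, against 11.9% of all tested probe sets, and 1 TIMP3 probe set was lower, against 5.94%. In TIMP1, TIMP2 and the brightest MMP9 probe set the lowest HHcy array exceeded the highest control, which held for 7.49% of all tested probe sets. No member probe set lay wholly below the controls, against 3.89%. The brightest MMP9 probe set passed the brightness limit only through the HHcy arrays, and those of MMP2 and MMP14 only through the controls. These 3 were therefore bound to differ in that direction and carry no weight in the counts. Of the 8 probe sets bright enough in both groups, which are those of TIMP1, TIMP2 and TIMP3, 2 were higher and 1 was lower at an unadjusted p under 0.05. The median log2 fold change was -0.20 over the 11 members, of which 6 belong to TIMP3, and 0.15 over all tested probe sets.

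**Figure D1:**
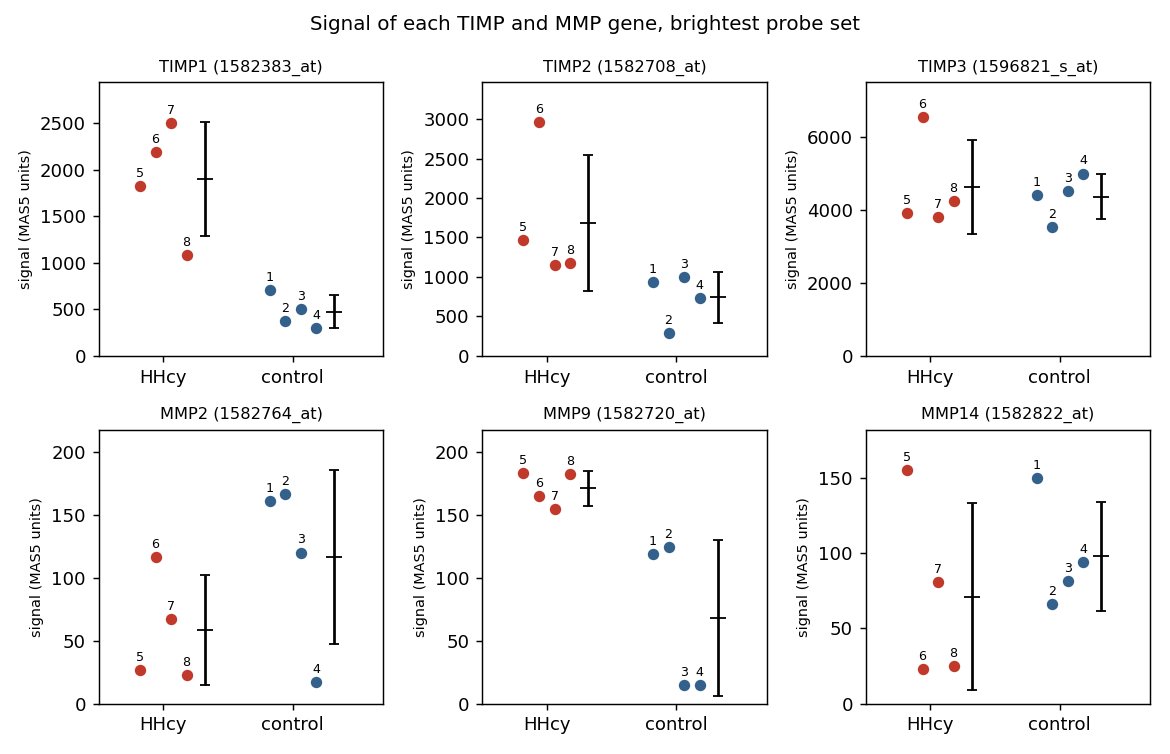
Signal in MAS5 units (linear axis from 0) for the brightest probe set of each of the 6 genes. Points are single arrays numbered by dog, and the bar beside them is the mean ± SD (n = 4). The HHcy arrays lie above all controls for TIMP1, TIMP2 and MMP9, and the groups overlap for TIMP3, MMP2 and MMP14.

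TIMP1, the inducible and secreted inhibitor of the family, showed the clearest difference among the members. Its signal was 1829, 2196, 2505 and 1088 units on HHcy 5, 6, 7 and 8, against 713, 376, 504 and 304 units on controls 1, 2, 3 and 4. All HHcy arrays were above all control arrays, with HHcy 8 the nearest to the controls. TIMP1 averaged 1905 ± 611 units in HHcy dogs against 474 ± 179 units in control dogs (SD, n = 4 each). The fold was 3.88, with a 95% interval of 2.34 to 6.44 (log2 fold change 1.96 ± 0.33, SE), and the adjusted p of 0.0613 missed the threshold. By unadjusted p (9.0e-05) TIMP1 stood at rank 21 of the 14301 tested probe sets, and by fold it stood at rank 92 among the higher ones.

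TIMP1 was higher in HHcy under every setting tried, but its side of the threshold varied. Leaving out 1 array at a time gave folds of 3.43 to 4.59, and the adjusted p was 0.0312 without HHcy 8 and 0.0722 to 0.233 without any other single array. Without HHcy 6 the fold was 3.65 (adjusted p 0.0722), and without HHcy 5 and HHcy 6 it was 3.53 (adjusted p 0.344). Down-weighting deviant arrays gave a fold of 3.67 and an adjusted p of 0.0293, while adjusting for the actin and GAPDH 3'/5' ratio gave a fold of 3.12 and an adjusted p of 0.591. Of all 14301 tested probe sets, 14 passed in the main fit, 31 without HHcy 8, 76 with down-weighting and 5 with that adjustment. Since the tissue is whole, more cells of a type and more RNA per cell cannot be told apart here or in the results that follow.

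TIMP2, which is expressed constitutively in many tissues, was also higher on every HHcy array. Its signal was 1465, 2960, 1146 and 1181 units on HHcy 5, 6, 7 and 8, against 936, 286, 1003 and 739 units on controls 1, 2, 3 and 4. The highest control, control 3, lay close under the lowest HHcy array, HHcy 7, and HHcy 6 was far above the rest. The fold was 2.28, with a 95% interval of 1.20 to 4.30 (log2 fold change 1.19 ± 0.42, SE, adjusted p 0.201). On the log2 scale it was 0.88 without HHcy 6, 0.80 without control 2 and 0.77 without HHcy 5 and HHcy 6. Adjusting for the 3'/5' ratio brought it to 0.33 (adjusted p 0.933).

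TIMP3, the inhibitor that stays bound to the extracellular matrix, did not show the pattern of TIMP1 and TIMP2. On its brightest probe set, 1596821_s_at, the signal was 3911, 6534, 3807 and 4253 units on HHcy 5, 6, 7 and 8, against 4402, 3545, 4519 and 4999 units on controls 1, 2, 3 and 4. The groups overlapped, and apart from HHcy 6 the HHcy arrays lay within the range of the controls. The log2 fold change was 0.058 ± 0.25 (SE, adjusted p 0.918), with a 95% interval of the fold from 0.716 to 1.51. Without HHcy 6 it was -0.12, and with median scaling it was -0.31, so no direction can be given.

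The other 5 TIMP3 probe sets had log2 fold changes from -1.12 to -0.019. The one with the lowest value, 1583531_at, had a signal of 456, 955, 336 and 584 units on HHcy 5, 6, 7 and 8, against 881, 3102, 763 and 1020 units on controls 1, 2, 3 and 4. The groups overlapped through HHcy 6, and control 2 stood well above the other controls. Its log2 fold change was -1.12 ± 0.45 (SE, adjusted p 0.235), and without control 2 it was -0.68 (adjusted p 0.399). On 1583532_at, the second brightest, the signal averaged 3163 ± 1021 units in HHcy dogs against 3823 ± 334 units in control dogs (SD, n = 4 each), a log2 difference of -0.32 ± 0.26 (SE, limma adjusted p 0.513). HHcy 5, 7 and 8 were below every control on that probe set, and HHcy 6, at 4586 units, was above every control.

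The TIMP3 probe sets did not report 1 common pattern over the arrays. Control 2 had the lowest control signal on the brightest probe set and the highest control signal on each of the other 5. Control 2 also had the lowest actin 3'/5' ratio of all arrays, 0.378, and the part of RNA quality in these differences was not tested. After centring each group on its mean, the 4 dimmest TIMP3 probe sets correlated with each other over the 8 arrays with Pearson's r of 0.54 to 0.79, or 0.37 to 0.82 without HHcy 6. Against the brightest probe set the same 4 had r of -0.21 to 0.39, and the second brightest had 0.73, or 0.036 without HHcy 6. For the 4 dimmest the range against the brightest was -0.77 to -0.24 without HHcy 6. These values describe arrays that share scaling and RNA quality. The files do not say which stretch of the transcript each probe set reports.

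**Figure D2:**
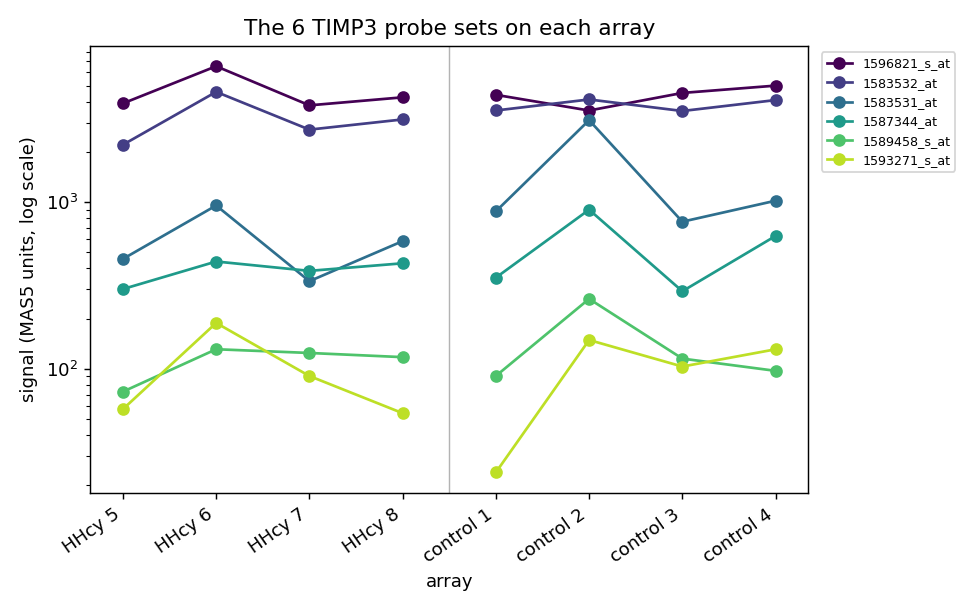
Signal of the 6 TIMP3 probe sets in MAS5 units (log axis) on each array, HHcy arrays on the left and control arrays on the right, with lines joining the arrays of 1 group for reading only. On control 2 the probe set 1583531_at reached 3102 units, while the brightest, 1596821_s_at, had its lowest signal there, 3545 units.

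MMP9, gelatinase B, is stored in neutrophil granules and is also made by macrophages. Its brightest probe set, 1582720_at, had a signal of 183, 165, 155 and 183 units on HHcy 5, 6, 7 and 8, against 119, 125, 14.7 and 14.6 units on controls 1, 2, 3 and 4. All HHcy arrays were above all controls and close to each other, whereas the controls split into a pair at 119 and 125 units and a pair under the pseudocount of 24. HHcy exceeded control by 1.38 ± 0.51 on the log2 scale (SE, limma adjusted p 0.212). Adding 6 or 96 units in place of 24 gave 1.78 and 0.78. It was 1.39 without HHcy 6 and 1.36 without HHcy 5 and HHcy 6.

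The other MMP9 probe sets were too dim to be tested and did not show the same values. On 1582994_at the signal was 136, 204, 35.4 and 12.1 units on HHcy 5, 6, 7 and 8, against 38.4, 32.7, 48.9 and 44.5 units on the controls. The high values were on HHcy 5 and HHcy 6, the arrays with the highest 3'/5' ratios. On 1582995_at the signal was 6.29 to 15.5 units in HHcy and 6.35 to 68.3 units in controls, so that 6 of the 8 arrays were under the pseudocount.

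MMP2, gelatinase A, is made by fibroblasts and other resident cells. Its signal was 26.7, 117, 67.3 and 22.6 units on HHcy 5, 6, 7 and 8, against 161, 166, 120 and 17.3 units on controls 1, 2, 3 and 4. The highest HHcy array was just under control 3, and control 4 was below every HHcy array, so the groups overlapped. The log2 fold change was -0.70 ± 0.58 (SE, adjusted p 0.531), with a 95% interval of the fold from 0.254 to 1.50. It was -1.0 without HHcy 6, -0.88 without HHcy 5 and HHcy 6, and -1.21 without control 4.

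MMP14, the membrane-type protease that activates the MMP2 proenzyme, was dim as well. Its signal was 155, 22.9, 80.6 and 25.2 units on HHcy 5, 6, 7 and 8, against 150, 66.4, 81.3 and 94.4 units on controls 1, 2, 3 and 4. HHcy 6 and HHcy 8 were below all controls and HHcy 5 was above them. The log2 fold change was -0.55 ± 0.51 (SE, adjusted p 0.573), with a 95% interval of the fold from 0.318 to 1.48. It was -0.28 without HHcy 6, -0.72 without HHcy 5 and HHcy 6, and -0.93 without HHcy 5. The intervals of MMP2 and MMP14 both include a fold of 1, so no difference was detectable at these signals.

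**Figure D3:**
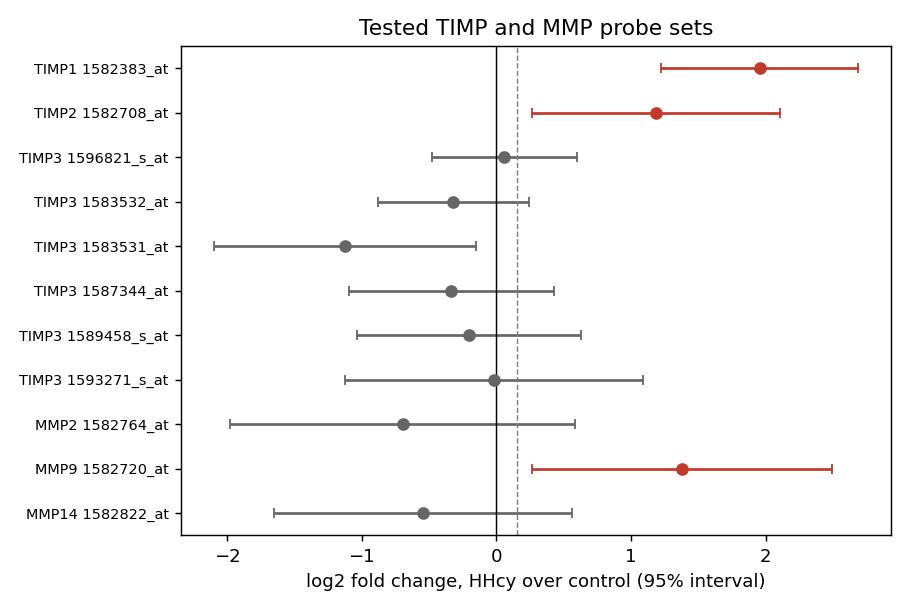
Log2 fold change of HHcy over control with its 95% interval (limma) for the 11 tested member probe sets. Red marks probe sets in which the lowest HHcy array exceeded the highest control, grey marks overlap, and the dashed line is the median over all tested probe sets, 0.15. TIMP1 had the highest value, 1.96, and 1 TIMP3 probe set the lowest, -1.12.

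The difference between TIMP1 and each other gene was compared within arrays. Array-wide scaling cancels only in part, because 24 units are added before the log, and with median scaling the gain was 2.54 against MMP2 and 2.40 against MMP14. The quantity is log2(signal + 24) of TIMP1 minus that of the brightest probe set of the other gene, and only its change between groups is read, since levels of different probe sets cannot be compared. It gained 1.90 against TIMP3, with -1.30 ± 0.58 in HHcy dogs against -3.20 ± 0.56 in control dogs (SD, n = 4 each). It gained 2.65 against MMP2, with 4.64 ± 0.51 in HHcy and 1.98 ± 0.79 in controls. It gained 2.50 against MMP14, with 4.51 ± 0.90 in HHcy and 2.01 ± 0.37 in controls. For these 3 pairs every HHcy array was above every control array, and the two-sided exact permutation p was 0.0286, the smallest that 4 against 4 arrays can give, or 0.0476 adjusted over the 5 pairs compared.

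Against TIMP2 and MMP9 the same difference overlapped between groups. The gain was 0.77 against TIMP2 (exact permutation p 0.20, adjusted 0.25) and 0.58 against MMP9 (exact permutation p 0.343, adjusted 0.343), each with 1 of the 4 HHcy arrays above all controls. TIMP1 was set against the others with its own fold already known, so these p-values are not independent support for a difference of TIMP1. MMP2 and MMP14 passed the brightness limit only through the controls, which widens the gain against them, so their pairs carry no weight. For MMP9, which passed only through the HHcy arrays, the limit works the other way. The adjusted permutation p of the TIMP3 pair came under 0.05 only because the MMP2 and MMP14 pairs tied with it in the adjustment. It is therefore not read as a pass. Without any 1 control the TIMP3, MMP2 and MMP14 pairs missed the threshold, with an adjusted permutation p of 0.0714 or 0.0952 and gains of 1.65 to 2.99.

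**Figure D4:**
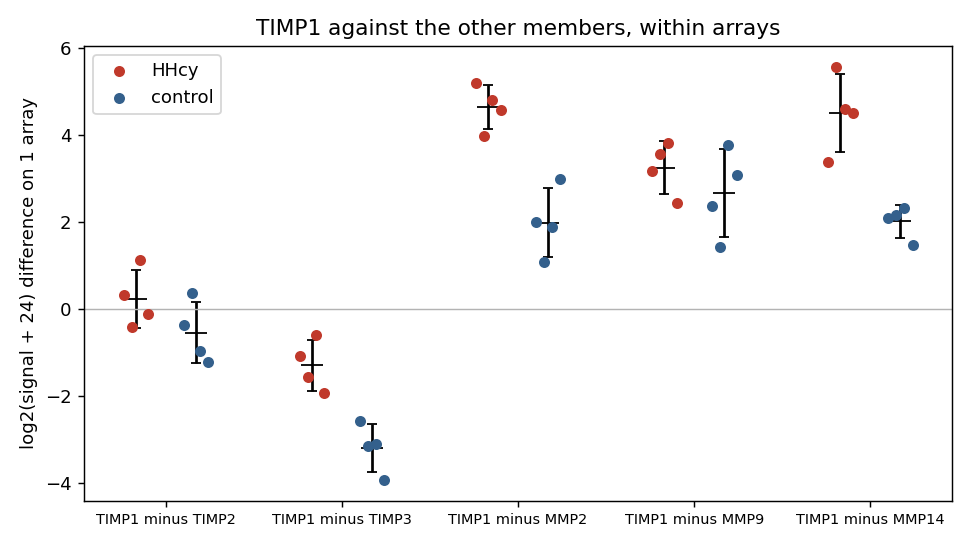
TIMP1 minus each other gene on the log2(signal + 24) scale, 1 point per array, HHcy in red to the left of control in blue, with mean ± SD (n = 4). The groups are apart for TIMP3, MMP2 and MMP14 and overlap for TIMP2 and MMP9. MMP2 and MMP14 passed the brightness limit only through the controls, so their pairs carry no weight.

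Other genes of matrix turnover were described from lists of 146 genes, of which 58 had a probe set with a single symbol and 38 were bright enough to test on their brightest one. None of the 38 passed with limma (12 at an unadjusted p under 0.05, all 12 higher in HHcy, against 11.9% of all tested probe sets). Of the 38, 8 lay wholly above the controls, against 7.49% of all tested probe sets. The median log2 fold change of the 38 was 0.50, against 0.15 over all tested probe sets. The split by direction depended on the scaling: 13 were higher and 2 lower at an unadjusted p under 0.05 with quantile scaling, against 8.06% and 8.08% of all tested probe sets, and 9 were higher and 4 lower with median scaling, against 4.77% and 13.5%. Under those scalings the median of the 38 was 0.41 and 0.15, against 0.012 and -0.18 over all tested probe sets.

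Without HHcy 6, without HHcy 5 and HHcy 6, or with RNA quality adjusted for, the medians of the 38 and of all tested probe sets were lower. The count of the 38 that were higher stayed at 12 without HHcy 6 and fell in the other settings given here. The share of all tested probe sets fell in each. Without HHcy 6 the median of the 38 was 0.32, against 0.11 over all tested probe sets, and 12 were higher at an unadjusted p under 0.05, against 8.62% of them. Without HHcy 5 and HHcy 6 it was 0.31, against 0.072, and 8 were higher, against 4.26%. Adjusting for the 3'/5' ratio gave 0.11, against 0.067, and 7 were higher, against 3.34%.

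Further members of the TIMP and MMP families were little covered. Only MMP3, MMP13 and MMP24 of 21 such genes had a probe set with a single symbol, and 0 were bright enough to test. TIMP4, the inhibitor most restricted to the heart, was not among those named by the annotation and was not analysed here. MMP3, stromelysin 1, had a signal of 265, 127, 49.0 and 97.5 units on HHcy 5, 6, 7 and 8, against 34.3, 11.7, 61.9 and 17 units on controls 1, 2, 3 and 4, and it is named after its values were seen. HHcy 7 was below control 3, so the MMP3 groups overlapped.

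Among ADAM and ADAMTS proteases, relatives of the MMPs, 3 of 34 genes were tested and 0 passed. The log2 fold change of ADAM9 was -0.57 ± 0.35 (SE, limma adjusted p 0.40). That of ADAM10, a sheddase of cell surface proteins, was -0.16 ± 0.22 (SE, limma adjusted p 0.723). Other probe sets of ADAM9 ran from -0.88 to 0.42, and another of ADAM10 had 0.59.

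Among activators, binders and other inhibitors 5 of 22 genes were tested, with a median log2 fold change of 1.24. The median was 1.11 without HHcy 6, 0.91 without HHcy 5 and HHcy 6, and 0.89 with median scaling. PCOLCE, an enhancer of procollagen C-proteinase, had a signal of 837, 2435, 1268 and 857 units on HHcy 5, 6, 7 and 8, against 466, 302, 693 and 200 units on controls 1, 2, 3 and 4. TFPI2, a serine protease inhibitor of the matrix, had 226, 375, 252 and 182 units on the same HHcy arrays, against 89.3, 129, 59.6 and 85.4 units on the controls. Both lay wholly above the controls, as did 7.49% of all tested probe sets, and both are named for the lowest p in their list. The limma adjusted p was 0.141 for both, with folds of 3.12 and 2.44.

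Cysteine cathepsins are lysosomal proteases, several of which also act on matrix proteins, and cystatins inhibit them. Of this list 8 of 13 genes were tested, all 8 had a positive log2 fold change (5 with median scaling), against 8578 of the 14301 tested probe sets, and 5 were higher at an unadjusted p under 0.05, against 11.9%. The median was 1.15, and it was 0.99 without HHcy 6 and 0.81 without HHcy 5 and HHcy 6. CTSC, which activates granule serine proteases, had 3035, 3155, 2943 and 1156 units on HHcy 5, 6, 7 and 8, against 690, 494, 905 and 679 units on controls 1, 2, 3 and 4, a fold of 3.45 (adjusted p 0.0905, 0.0165 without HHcy 8). CTSS had a fold of 2.43 (adjusted p 0.126) on its brightest probe set, whereas the groups overlapped on the other tested CTSS probe sets, with log2 fold changes of 0.090 and 0.79. As with TIMP1, HHcy 8 was the HHcy array nearest to the controls for CTSC and the brightest CTSS probe set.

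Cytokines and factors known to induce TIMP1 or MMPs had 10 of 33 genes tested, with a median log2 fold change of 0.50, and 3 were higher at an unadjusted p under 0.05, against 11.9% of all tested probe sets. FOS, a subunit of the AP-1 factor, had 514, 263, 449 and 379 units on HHcy 5, 6, 7 and 8, against 188, 201, 172 and 91.7 units on controls 1, 2, 3 and 4, a fold of 2.29 (adjusted p 0.144, 0.0499 with array weights). The brightest IL1B probe set had 1574, 2199, 1260 and 1241 units in HHcy, against 1365, 454, 205 and 60.4 units in controls. Control 1 lay within the HHcy range, and the fold was 4.60 (adjusted p 0.162). The log2 fold change was 0.038 on another tested IL1B probe set.

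Basement membrane, elastic fibre and proteoglycan genes, which encode substrates of these proteases, had 12 of 23 genes tested. The median log2 fold change was 0.45, or 0.29 without HHcy 6 and 0.094 with median scaling. For the proteoglycan decorin, DCN, the log2 fold change was 0.76 ± 0.30 (SE, limma adjusted p 0.229) on the brightest probe set and 0.010 and 0.52 on the others. COL4A5, a collagen IV chain, had 0.78 ± 0.39 (SE, adjusted p 0.314).

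**Figure D5:**
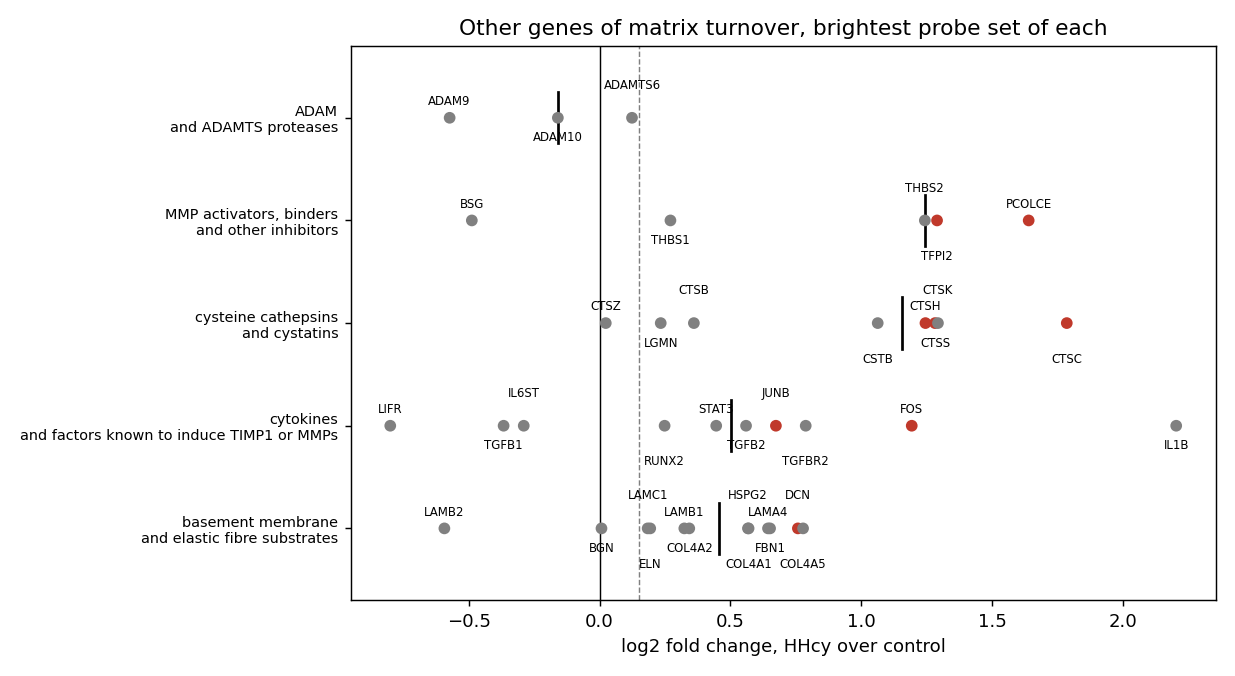
Log2 fold change of HHcy over control for the 38 tested genes of 5 matrix turnover lists, each by its brightest probe set. Red marks genes in which the lowest HHcy array exceeded the highest control, black bars are list medians, and the dashed line is the median over all tested probe sets, 0.15. All 8 cathepsin and cystatin genes lie above 0 (5 with median scaling), and none of the 38 passed the test.

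The summed signals of macrophage and of fibroblast markers were higher on every HHcy array, as were TIMP1 and TIMP2. The part of these cell types in the differences was not tested. The summed signal of macrophage and monocyte markers, of which 11 of 13 were on the array, led by LYZ and CD163, was 10709 to 19440 units in HHcy and 5850 to 7912 units in controls. Of these 11, 8 were higher at an unadjusted limma p under 0.05, against 11.9% of all tested probe sets. ITGAM, C1QA and C1QC had log2 fold changes of only 0.27, 0.13 and 0.23. That of fibroblast markers, of which 8 of 12 were on the array, led by DCN and DPT, was 37290 to 92643 units in HHcy and 23216 to 35689 units in controls. On the log2 scale the median deviation of the fibroblast markers from their control means was 0.38 to 1.90 in HHcy. In controls it was -0.45 to 0.37, so the groups nearly touched. Of the 7 tested ones, 5 were higher at an unadjusted limma p under 0.05, and COL3A1 had a log2 fold change of -0.48. DCN belongs to both the fibroblast markers and the substrate genes above. HHcy 8 had the lowest sum of the HHcy arrays for both lists, and the lowest TIMP1 signal.

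HHcy 6 had the highest sum of all arrays for every marker list with probe sets except the cardiomyocyte and neutrophil lists. It also had the highest TIMP2 signal, so a high sum on HHcy 6 does not single out any cell type for TIMP2. The smooth muscle markers, of which 6 of 8 were on the array, led by ACTA2 and MYH11, summed to 65199 units on HHcy 6, against 8869 to 10289 units for HHcy 5, 7 and 8 and 4989 to 12318 units for controls. Endothelial markers, with 5 of 9 on the array, led by PECAM1 and VWF, summed to 22969 to 32723 units in HHcy and 21487 to 29349 units in controls.

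For 2 further lists the sums did not overlap between groups, but the median deviation of their markers did. Mesothelial and epithelial markers, with 4 of 8 on the array, led by KRT8 and EPCAM, summed to 320 to 1659 units in HHcy and 125 to 288 units in controls. On the log2 scale the median deviation of these markers was 0.69 to 2.57 in HHcy and -0.29 to 0.69 in controls, with HHcy 7 just under control 3, and CDH1 had a log2 fold change of 0.064. Lymphocyte markers, also with 4 of 8, led by CD4 and CD3D, summed to 647 to 1069 units in HHcy and 225 to 645 units in controls, with HHcy 8 close above control 1. Their median log2 deviation was 0.080 to 0.74 in HHcy and -0.44 to 0.69 in controls, and CD8A had a log2 fold change of -0.070. Adipocyte markers, with 3 of 7, led by LPL and ADIPOQ, overlapped at 431 to 2057 units in HHcy and 439 to 876 units in controls. None of the 5 erythroid markers had a probe set with a single symbol. Of 13 neutrophil markers only CXCR2 and ELANE had a probe set with a single symbol, and neither was bright enough to test. Their summed signal was 25.4 to 192 units in HHcy and 72.4 to 152 units in controls, so neutrophils, 1 source of MMP9, could not be followed with these markers. No marker on the array had a signal of exactly 0.

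The genes whose signal varied most like that of each member within groups were not members of the family. By Pearson's r over the 8 arrays, after centring each group on its mean, ALG2, RB1CC1 and CNN3 were nearest to TIMP1, with r of 0.96, 0.94 and 0.93. MYL9, CDC16 and ALDH3A2 were nearest to TIMP2, with r of 0.98 for each. PNPLA2, CNST and FRZB were nearest to TIMP3, DYNC1I2, VPS13B and PDGFRL to MMP2, PSPC1, NOS1 and RRAGA to MMP9, and HJV, FBXO32 and LOC480822 to MMP14, with r of 0.96 to 0.99. These are the highest of 7288 tested probe sets with a single symbol on 8 arrays, and are given as a description.

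Between members the same within-group r was 0.42 for TIMP1 and TIMP2, 0.70 for TIMP1 and MMP2, and 0.83 for TIMP2 and the brightest TIMP3 probe set. Without HHcy 6 these were 0.35, 0.68 and 0.76. Other pairs went the other way. TIMP2 against the remaining TIMP3 probe sets had r of -0.62 to 0.29, or -0.92 to -0.54 without HHcy 6. For MMP14 and the TIMP3 probe set 1583532_at r was -0.83, or -0.87 without HHcy 6. The pairs given are a part of all member pairs, so no common direction can be read from them.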

How the data were processed

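Cardiac RNA of 8 dogs, 4 HHcy and 4 control, was measured on 1 Affymetrix array each. The authors deposited linear intensities per probe set, from MAS5 according to the submitters' processing notes. The MAS5 version and the scaling target are not given in the sources used here, and detection calls were not used. Groups were taken from sample titles. In the platform annotation 10549 probe sets carry 1 symbol, 138 carry several and 13226 carry none. The gene identifier and symbol of all 13 member probe sets were found in RefSeq's gene table. No genome build is named for the array, so no coordinates are given.

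Values were analysed as log2(signal + 24), 24 being the 20th percentile of all values. The 77 control probe sets and the dimmest 40% by mean log2 value were left out, which left 14301. HHcy was compared with control in limma 3.58.1 under R 4.3.3, using an intensity trend and Benjamini-Hochberg adjustment. The arrays hold separate dogs per the labels, with no batch given. The procedure was tested on simulated data of the same 14301 probe sets. Of 50 changed ones per size it recovered 8% for a change of 1 log2 unit, 54% for 2 units, 78% for 3 units and 100% for 4 units, and it made 9 false calls.

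The members, lists and tests were chosen with earlier results of these data known. The rule for named genes took every member probe set, the genes of each list that passed or else the 2 of lowest p, the 3 genes most like each member and the 2 brightest markers of each list. Alternatives were other scalings, pseudocounts, filters and variance models, array weights, an RNA quality covariate and leaving out arrays.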

Additional observations from a re-analysis of the deposited data

Results flagged for a closer look

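Single arrays lay far from the rest of their group in 4 of the 56 groups of 4 arrays examined, where chance alone would give about 5%. On the brightest TIMP3 probe set, 1596821_s_at, HHcy 6 had 6534 units and the nearest HHcy array 4253 units. On 1583531_at control 2 had 3102 units and the nearest control 1020 units. On 1589458_s_at control 2 had 263 units and the nearest control 115 units. For CTSC, HHcy 8 had 1156 units and the nearest HHcy array 2943 units.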

How the results depend on the processing

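The count of member probe sets passing was 0, and it became 1, TIMP1, with array weights (log2 fold change 1.88, adjusted p 0.0293) and without HHcy 8 (log2 fold change 2.20, adjusted p 0.0312). The count of other matrix turnover genes passing was 0, and it became 1 in the same 2 settings, FOS with array weights and CTSC without HHcy 8. Leaving out single arrays therefore gave 0 to 1 for both counts, and log2 fold changes of 1.78 to 2.20 for TIMP1. Of all 14301 tested probe sets, 14 passed in the main fit, 76 with array weights and 31 without HHcy 8. Both settings thus called more probe sets across the whole array. Over all 19 alternatives the TIMP1 log2 fold change was 1.60 to 2.20 and its adjusted p 0.0293 to 0.591. TIMP2 kept its direction in every alternative run and did not pass in any. MMP2, MMP9 and MMP14 did the same, but the brightness limit had already set their direction, so it is no sign of stability. The scalings moved the median log2 fold change of all tested probe sets from 0.15 to 0.012 (quantile) and -0.18 (median). Probe sets at an unadjusted p under 0.05 numbered 1700 higher and 849 lower, 1152 and 1156 with quantile scaling, and 682 and 1926 with median scaling.

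Of the TIMP3 probe sets, 1596821_s_at (0.058) had -0.31 with median scaling, -0.14 with array weights, -0.28 with an adjustment for the 3'/5' ratio, -0.11 without HHcy 5 and HHcy 6, -0.038 without control 2 and -0.12 without HHcy 6, within -0.12 to 0.14 over single-array omissions. The set 1589458_s_at (-0.20) had 0.022 with that adjustment and 0.098 without control 2, within -0.34 to 0.098. The set 1593271_s_at (-0.019) had 0.011 with a pseudocount of 6, 0.18 without control 2, 0.037 without control 3, 0.13 without control 4, 0.13 without HHcy 5 and 0.15 without HHcy 8, within -0.43 to 0.18. The cause was not tested.

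Within arrays, the gain of TIMP1 over single-array omissions was 1.65 to 2.11 against TIMP3, 2.35 to 2.99 against MMP2 and 2.15 to 2.88 against MMP14. These 3 missed the threshold without any 1 control (adjusted permutation p 0.0714 or 0.0952) and not without any 1 HHcy array (0.0476), with 35 splits of the arrays in both cases. Without HHcy 5 and HHcy 6 they were values with no test. No paired analysis was possible because HHcy dogs are numbered 5 to 8 and control dogs 1 to 4, so that no number is shared. Signals near the pseudocount limit what can be said of MMP2, MMP9 and MMP14. The brightness limit had also set the direction of these genes, so the pairs of TIMP1 with MMP2 and MMP14 carry no weight. The adjusted permutation p of the TIMP3 pair came under the threshold only through its tie with them, so it is not read as a pass.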
